A study of Mus musculus with 36 samples.

Results

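The NRF2 antioxidant programme was followed through 10 of its genes in mouse pancreatic fibroblasts that had been grown alone or in direct contact with tumour cells. They were Nfe2l2, which encodes NRF2 itself, and the genes Nqo1, Hmox1, Osgin1, Gclc, Gclm, Gsr, Gsta4, Txnrd1 and Srxn1. The 10 genes were found by their symbols in a count table of 39017 genes, and all 10 were among the 14439 genes abundant enough to be tested. The 36 RNA-seq libraries fell into 9 groups of 4, all from fibroblasts of strain C57BL/6. The mono-culture formed 1 group, and the others were co-cultures with the tumour sub-clones E, H, K, M, N, T and V and with KPC1, a name that the labels do not explain. Co-cultures lasted 48 h, after which tumour cells, which carried GFP, and fibroblasts were parted by flow sorting (FACS). Whether the mono-cultures also passed through the sorter, and whether the 4 libraries of a group came from separate cultures, is not given in the sources used here. An effect of the sort and one of the co-culture therefore cannot be told apart, and the p-values measure only the spread between libraries, which may be technical.

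NRF2 is a transcription factor that is made all the time and destroyed all the time. The adaptor KEAP1 and the ubiquitin ligase built on CUL3 and RBX1 mark it for destruction, and oxidants or electrophiles that react with KEAP1 let it accumulate. NRF2 then pairs with a small MAF protein on antioxidant response elements, where the repressor BACH1 can compete with it, and drives genes of glutathione synthesis, thioredoxin recycling, quinone reduction and haem breakdown. Much of this control acts on the NRF2 protein, which RNA-seq does not measure.

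The libraries held 12532122 to 21985538 counts, with a median of 18001907. Each of the 9 fibroblast markers had more than 3 counts in at least 1 library of every group. Their summed level was 10884 to 32040 CPM (counts scaled by TMM to a common library size). The markers did not move together. With KPC1, Lum had a mean of 0.32 CPM beside 6.35 in the mono-culture, Dcn 69.2 beside 317 and Pdgfra 107 beside 312. Col1a1, Col1a2 and Col3a1 also had lower means with KPC1. Pdgfrb (994 beside 576 CPM), Thy1 (341 beside 195) and Vim (3566 beside 2483) had higher means. Replicate 1 of clone V, the library with the lowest fibroblast sum, was also the lowest of its group for Nqo1, Osgin1 and Srxn1. Without it, the log2 fold changes with clone V were -1.90 for Nqo1 and 0.65 for Osgin1. The sum of 12 epithelial (tumour cell) markers was 1.14 to 1.76 CPM in the mono-cultures and 19.96 to 863 CPM in the co-cultures. Krt8 and Krt18 were among the markers that were higher. Krt8 had a mean of 0.023 CPM in the mono-culture and 19.5 (clone V) to 156 CPM (clone N) in the co-cultures. Krt18 had a mean of 0.16 CPM in the mono-culture and 54.2 (clone V) to 281 CPM (clone T) in the co-cultures. The libraries of every line also lay above all mono-culture libraries for Krt19 and Cldn6, and so did those of every line but clones K and M for Cdh1. Krt7 had a mean of 0.37 CPM in the mono-culture and 0.25 (KPC1) to 0.97 CPM (clone M) in the co-cultures. Cldn7 had lower means in every co-culture, 0.025 (clone V) to 0.198 CPM (clone K) beside 0.28 CPM in the mono-culture. Epcam, Cldn4 and Esrp1 stayed below 0.5 CPM in every library. Epithelial marker RNA thus moved with co-culture beside every result given here. Its part in them was not tested, and in bulk RNA fewer cells of a type and less RNA per cell cannot be told apart. The mean Pearson r of a library's log2 CPM with the others of its group was 0.969 (KPC1 replicate 4) to 0.988 (mono-culture replicate 4).

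The letters below show the antioxidant response element core, TGANNNNGC, where it was found in members' promoters, because the members share this element as their textbook link to NRF2. Windows of RefSeq (build GRCm38.p6) running from 250 bases before to 50 bases after each listed transcript start were searched on both strands. Of the 10 members, 6 had a window in the table, 8 windows in all, with 3 of them for Txnrd1. The core was present in 6 of these 8 windows, and in 41.3% of all 32851 windows. The stricter form, which is the core followed directly by an A, was present in 3 of the 8 windows and in 13% of all windows. The window of Nqo1 held neither form, and Hmox1, Gclc, Gsr and Gsta4 had no window. Each line gives 29 bases of the minus strand, 5′ to 3′, with the match in capitals. The Srxn1, Osgin1 and Txnrd1 lines are the 3 matches to the stricter form, lying 57, 99 and 92 bases before the transcript start on which RefSeq centred that window, and the other two lines are the single matches of Gclm and Nfe2l2.
Srxn1, chr2:152105457-152105485: tgactcagggTGAATTTGCaggtcgcgga
Osgin1, chr8:119437038-119437066: ttcataagcgTGAGTCAGCaggggcccct
Txnrd1, chr10:82859104-82859132: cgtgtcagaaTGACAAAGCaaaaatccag
Gclm, chr3:122245413-122245441: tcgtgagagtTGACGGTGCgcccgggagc
Nfe2l2, chr2:75704885-75704913: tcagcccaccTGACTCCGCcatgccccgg
For Osgin1 and Txnrd1 that start lies inside the gene span given below from GENCODE, downstream of its first base. Srxn1 also held matches to the core alone that are not shown, 45 and 158 bases before its transcript start and 28 bases after it. Txnrd1 held another, also not shown, 84 bases before the start of a different window. A match is a description of letters and not of binding. The members with the stricter form were Osgin1 and Txnrd1, which rose on average, and Srxn1, which was not called, as described below. Gsr and Gsta4, also not called on average, were among the members with no window.

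The members did not move as a block. Against the mono-culture, the mean of the 8 co-cultures was higher for 4 members, lower for 3 and not called for 3, by edgeR's quasi-likelihood test with a Benjamini-Hochberg adjusted p under 0.05 over all genes tested. The median log2 fold change of the 10 members was 0.19, beside 0.01 over all genes tested. The 7 of 10 members called stood beside 52.7% of all genes called, of which 26.1% were higher and 26.6% lower, so the share among members was near the background. Nfe2l2, Osgin1, Gclc and Txnrd1 rose, while Nqo1, Hmox1 and Gclm fell. Across the 80 tests of a member with a single tumour line, 26 were higher, 22 lower and 32 not called. These 8 comparisons share the same 4 mono-culture libraries.

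By tumour line, the members called are given beside the shares of all genes called higher, lower and in all. Clone K had no member higher and 3 lower, beside 10.4% and 8.69% of all genes (19.1% called in all), and clone M had 2 higher and 4 lower, beside 12.2% and 10.8% (23% in all). With clone E 4 members were higher and 2 lower, beside 16.5% and 15.5% (32% in all). Clone N had 3 of each, beside 19.7% and 19.2% (39% in all), and clone T had 5 higher and 3 lower, beside 25% and 24.7% (49.8% in all). The co-culture with clone H had 4 higher and 2 lower, beside 27.8% and 26.4% (54.2% in all). With clone V 4 were higher and 3 lower, beside 29.4% and 28.9% (58.3% in all), and with KPC1 the counts were 4 and 2, beside 30.5% and 28.5% (59% in all). The 3 members called with clone K were Nqo1, Hmox1 and Gsr. When the 8 co-cultures were compared with each other in a single F-test, 9 of 10 members differed, beside 72% of all genes. Srxn1 was the exception, with an edgeR adjusted p of 0.13.

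**Figure D1:**
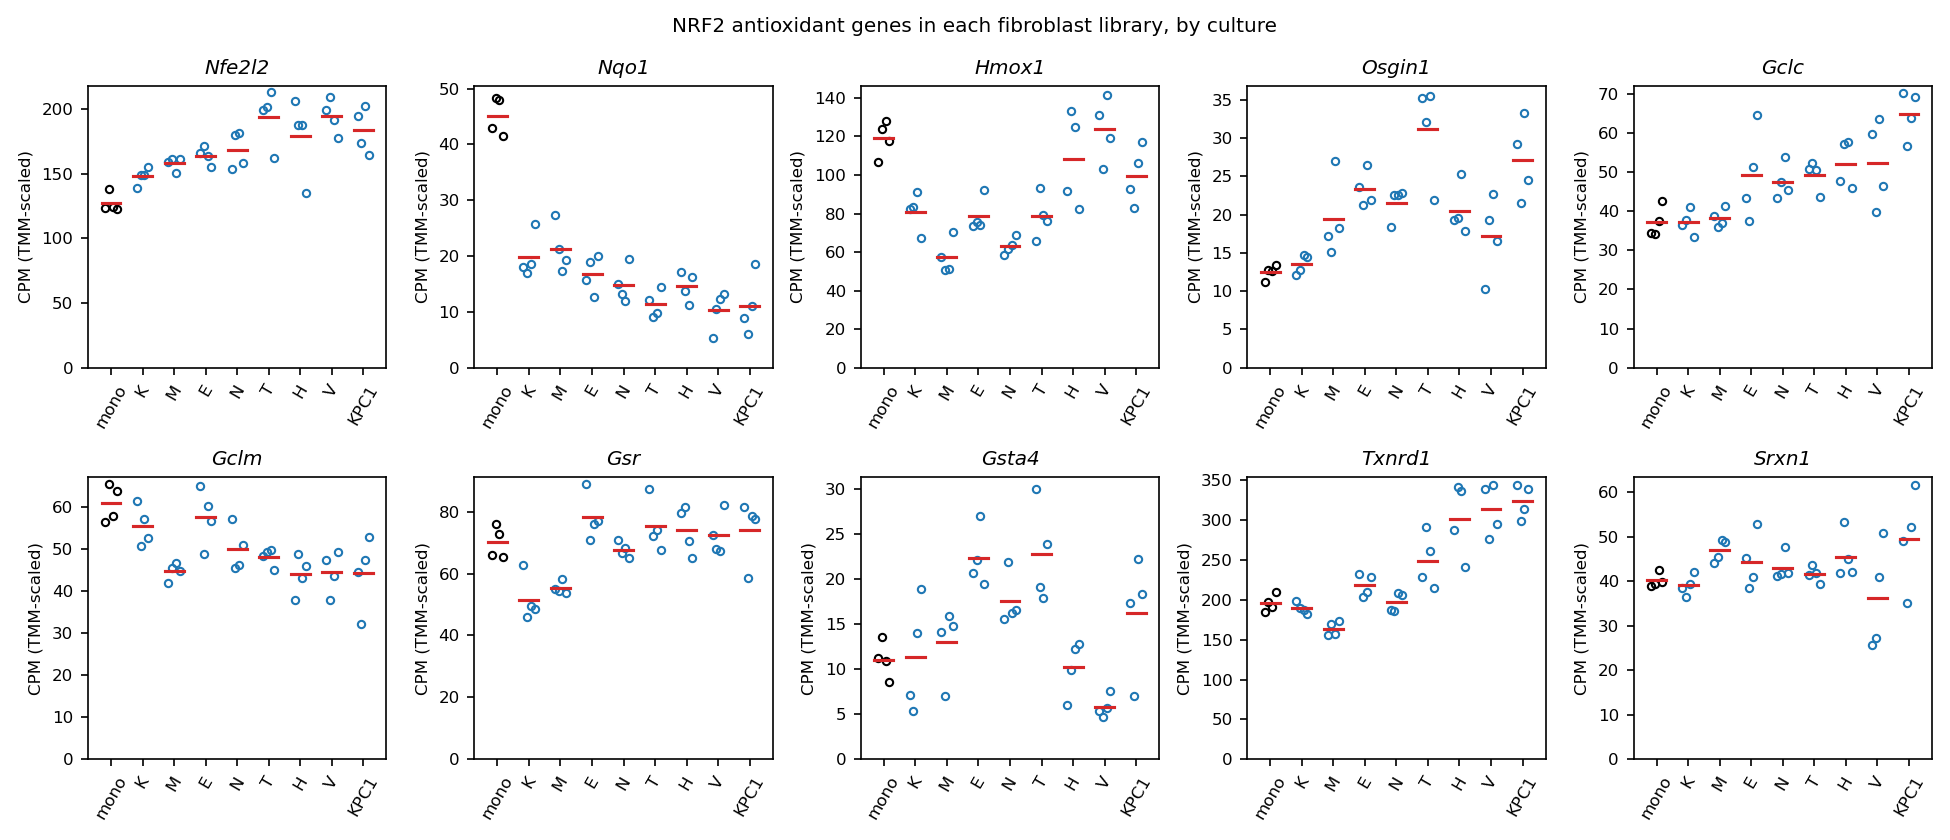
Level of each of the 10 genes in every library, in CPM (counts scaled by TMM to a common library size) on a linear axis from 0. Open circles are single libraries (4 per culture, black for mono-culture and blue for co-culture) and red lines are group means, with the tumour lines ordered by the share of all genes called against mono-culture. Every co-culture library lies below the mono-culture for Nqo1, while Nfe2l2 and Osgin1 lie mostly above it and Srxn1 overlaps it.

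Per gene length, the members covered a wide range of levels in the mono-culture. In the deposited RPKM values (reads scaled to gene length and library size), Hmox1 was the most abundant at 79.1 ± 5.41 (SD, n = 4), followed by Txnrd1 at 61.5 ± 3.66 and Nfe2l2 at 53.7 ± 1.89. Nqo1 (30.3 ± 1.89) and Gsr (27.4 ± 1.5) followed, and Osgin1 was the least abundant at 5.66 ± 0.424 RPKM. With clone V, Nqo1 had a mean of 6.50 RPKM and lay below Osgin1 at 7.30 RPKM. Every member was counted in every library, with the fewest counts, 82, for Gsta4.

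Nfe2l2 (ENSMUSG00000015839), the gene for NRF2, lies on the minus strand at chr2:75675513-75704641 of GRCm38 (mm10). It was at 124, 138, 124 and 123 CPM in the mono-culture and at 199, 209.8, 192 and 178 CPM with clone V. With clone K it was at 139, 149, 149 and 156 CPM, the smallest step from the mono-culture. In 31 of the 32 co-culture libraries it lay above every mono-culture library, and the exception was replicate 4 of clone H. The mean log2 fold change was 0.44 (SE 0.07, edgeR adjusted p 1e-05), with values by line from 0.22 with clone K to 0.61 with clone V. It passed the test with 7 lines and not with clone K (edgeR adjusted p 0.11). The call with clone M, 0.31 with an edgeR adjusted p of 0.016, was lost without mono-culture replicate 1 (0.056) or replicate 4 (0.052).

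Most of the listed regulators of NRF2 also differed at the RNA level. Of 11 regulators and partners, 5 were higher in the mean of the co-cultures, 4 lower and 2 not called, with a median log2 fold change of 0.10. The 9 called (81.8%) stood beside 52.7% of all genes called, 26.1% higher and 26.6% lower. Keap1, the adaptor that targets NRF2 for destruction, was at 83.5, 83.1, 79.2 and 88.4 CPM in the mono-culture and at 28.7, 21.7, 34.2 and 35.1 CPM with KPC1. All 32 co-culture libraries lay below the mono-culture. The mean log2 fold change of Keap1 was -0.80 (SE 0.10, edgeR adjusted p 6.1e-08), and 6 of the 8 lines passed the test, with clones K and M the exceptions. Rbx1, the RING subunit of the ligase, fell by 0.51 on the log2 scale (SE 0.09, edgeR adjusted p 2.3e-05), with 32 of 32 libraries below the mono-culture.

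Bach1, the repressor that competes for the same elements, was lower with all 8 lines. Its level was 78.8 to 88.7 CPM in the mono-culture and 53.4 to 76.6 CPM with clone V, and the mean log2 fold change was -0.31 (SE 0.07, edgeR adjusted p 0.00017). No difference of Bach1 among the co-cultures was detected (edgeR adjusted p 0.81). Of the small MAF genes, which encode NRF2's partners on DNA, Maff and Mafk were higher. Maff was at 17.9 to 21.1 CPM in the mono-culture and at 116 to 180.1 CPM with KPC1, and its mean log2 fold change was 1.79 (SE 0.20, edgeR adjusted p 1.3e-08). Mafk rose by 1.02 on average (SE 0.14, edgeR adjusted p 2.2e-07), with 31 of 32 libraries above the mono-culture. Mafg differed by line: it was higher with 4 lines and not called with the other 4, from -0.29 with clone M to 0.86 with KPC1. With clone M all 4 libraries of Mafg, at 53.3 to 65.2 CPM, lay below the mono-culture at 70.2 to 78.4 CPM (edgeR adjusted p 0.097). Small MAF proteins have no activation domain and also pair with each other and with BACH1.

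**Figure D2:**
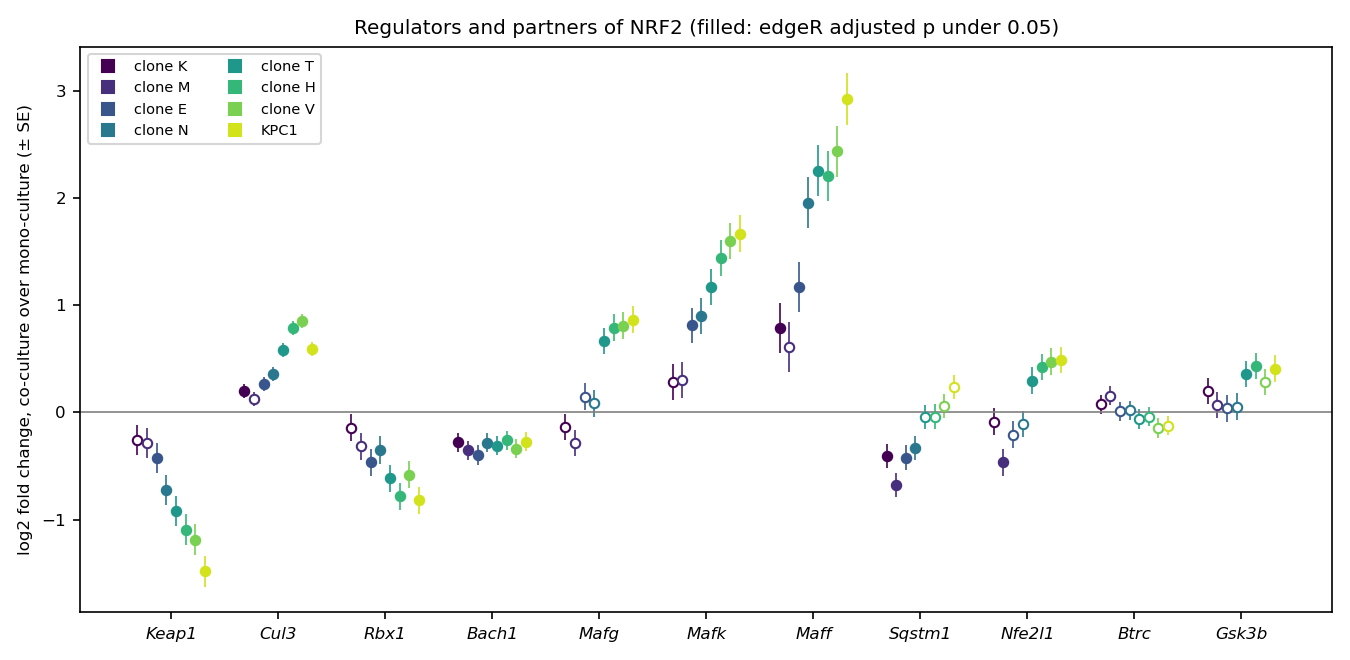
Log2 fold change of 11 regulators and partners of NRF2 with each tumour line over mono-culture, with its standard error as the bar; colours stand for lines and filled points for an edgeR adjusted p under 0.05. Keap1 and Rbx1 lie at or below 0 with every line, Bach1 is lower with all 8, and Maff reaches 2.92 with KPC1.

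Nqo1 (ENSMUSG00000003849; chr8:107388225-107403206, minus strand), which reduces quinones and is a much-used readout of NRF2, showed the largest change of any member. It was at 42.9, 48.3, 47.9 and 41.5 CPM in the mono-culture and at 5.24, 10.4, 12.4 and 13.2 CPM with clone V. With clone M, the co-culture of highest mean, it was at 27.4, 21.3, 17.4 and 19.2 CPM. All 32 co-culture libraries lay below the lowest mono-culture library, and no range of a co-culture overlapped that of the mono-culture. The mean log2 fold change was -1.63 (SE 0.16, edgeR adjusted p 1.1e-09), and all 8 lines passed the test, from -1.08 with clone M (edgeR adjusted p 0.0016) to -2.13 with clone V (4.1e-08). In the order of the 9 levels, the step from clone M to the mono-culture was the only one between neighbours that passed the test, and 7 of 28 pairs of co-cultures differed. The co-culture library with the least epithelial marker RNA, replicate 2 of clone K at 19.96 CPM, held Nqo1 at 17.03 CPM. That was the lowest Nqo1 of clone K, whose libraries had the same order by Nqo1 and by epithelial sum. With clone M, by contrast, the library with the highest epithelial sum, replicate 3, had the lowest Nqo1. The part of tumour cell RNA in Nqo1 was not tested.

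The 3 genes whose log2 CPM followed Nqo1 most closely over the 36 libraries, of 11685 genes compared, were Rabl5, Oscp1 and Fech, each with a Pearson r of 0.93. All points share the same libraries, and 4 of them are the mono-cultures that lie apart from the rest. Fech, which inserts iron into haem, was at a mean of 144 CPM in the mono-culture and 81.1 CPM with clone V.

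Hmox1 (ENSMUSG00000005413; chr8:75093621-75100589, plus strand) encodes haem oxygenase 1, which breaks down haem and is repressed by BACH1. It was at 107, 124, 128 and 118 CPM in the mono-culture, and at 57.6, 50.5, 51.3 and 70.4 CPM with clone M. With clone V it was at 131, 103, 142 and 119 CPM, a range that held the mono-culture within it. The mean log2 fold change was -0.51 (SE 0.10, edgeR adjusted p 7.9e-05). The gene split the lines: clones E, K, M, N and T were lower, from -0.55 with clone K to -1.05 with clone M (edgeR adjusted p 1.4e-06). Clone H (-0.14, edgeR adjusted p 0.41) and KPC1 (-0.26, 0.11) did not pass the test, and neither did clone V (0.75). For KPC1 the call depended on scaling: with library size alone the value was -0.35 with an edgeR adjusted p of 0.031.

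Hmox1 differed in 15 of 28 pairs of co-cultures, more than any member but Txnrd1, and clone V was higher than clone M by 1.11 on the log2 scale. Its log2 CPM correlated with that of Txnrd1 at a Pearson r of 0.67 over all 36 libraries and 0.87 over the 32 co-culture libraries. With Nqo1 the corresponding values were 0.01 and -0.45. The genes most like Hmox1 were Atp6v1h and Atp6v1d, which encode subunits of the pump that acidifies lysosomes, and Chaf1b, a histone chaperone subunit, each with an r of 0.88 over the 36 libraries.

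Osgin1 (ENSMUSG00000074063; chr8:119434124-119446256, plus strand), a gene induced by oxidative stress that restrains growth, showed the largest mean rise of a member. It was at 11.2, 12.7, 12.6 and 13.4 CPM in the mono-culture and at 35.3, 32.1, 35.6 and 21.9 CPM with clone T. With clone K it was at 12.1, 12.8, 14.8 and 14.5 CPM and overlapped the mono-culture. The mean log2 fold change was 0.76 (SE 0.15, edgeR adjusted p 8.1e-05), with 29 of 32 libraries above the mono-culture. It was higher with 7 lines, up to 1.32 with clone T (SE 0.19, edgeR adjusted p 1e-06), and not with clone K (0.12, 0.73). With clone V the replicates ranged from 10.3 to 22.7 CPM, and the call (0.46, edgeR adjusted p 0.035) was lost without replicate 2 (0.092) or 3 (0.19) of clone V and without replicate 1 (0.092) or 2 (0.055) of the mono-culture. With clone M the call (0.64, edgeR adjusted p 0.013) was lost without replicate 3 of clone M (0.12) or replicate 1 of the mono-culture (0.051). That replicate of clone M had the highest Osgin1 of its group, 27.1 CPM, and the highest epithelial marker sum, 558 CPM. With clone V the highest Osgin1 (replicate 3) and the highest sum (replicate 4) were in different libraries. The part of tumour cell RNA in Osgin1 was not tested.

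Gclc and Gclm encode the catalytic and the modifier subunit of glutamate-cysteine ligase, the rate-limiting enzyme of glutathione synthesis, and they went in opposite directions. Gclc (ENSMUSG00000032350; chr9:77754535-77794485, plus strand) was at 34.3, 34.2, 37.3 and 42.7 CPM in the mono-culture and at 70.1, 56.6, 63.8 and 69.2 CPM with KPC1. Its mean log2 fold change was 0.37 (SE 0.10, edgeR adjusted p 0.0031), and 6 lines were higher, up to 0.81 with KPC1 (SE 0.13, edgeR adjusted p 6.5e-06). Clones K and M did not pass the test and overlapped the mono-culture. The call with clone E (0.40, edgeR adjusted p 0.022) was lost without its replicate 4 (0.23, 0.19) and without replicate 1 (0.077) or 2 (0.06) of the mono-culture. The call with clone N (0.35, edgeR adjusted p 0.036) was lost in 9 of the 36 fits that left out a library. These were the fits without replicate 2 or 3 of clone N or replicate 1, 2 or 3 of the mono-culture (edgeR adjusted p 0.053 to 0.12) and, through the shared spread, without KPC1 replicate 1 or 3, clone M replicate 4 or clone T replicate 1 (0.05 to 0.053).

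Gclm (ENSMUSG00000028124; chr3:122245557-122270732, plus strand) was at 56.4, 65.3, 57.7 and 63.7 CPM in the mono-culture and at 37.7, 48.8, 43.0 and 46.0 CPM with clone H. Its mean log2 fold change was -0.33 (SE 0.08, edgeR adjusted p 0.00099), with 26 of 32 libraries below the mono-culture and none above it. It was lower with 6 lines, down to -0.47 with clone H (SE 0.11, edgeR adjusted p 0.00075). Clones E and K did not pass the test (edgeR adjusted p 0.65 and 0.46), and the call with clone N (-0.28, edgeR adjusted p 0.043) was lost in 14 of the 36 fits that left out a library. These were the fits without replicate 2, 3 or 4 of clone N or of the mono-culture (edgeR adjusted p 0.06 to 0.14) and without clone E replicate 3, clone K replicate 2 or 3, clone M replicate 1, 2 or 3, or clone T replicate 2 or 3 (0.051 to 0.054).

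The ratio of Gclc to Gclm in RPKM, which needs no scaling between libraries, was formed after both genes had been seen, so its p-values are given as a description and not as independent evidence. It was 0.992, 0.856, 1.06 and 1.09 in the mono-culture and 2.57, 2.87, 2.20 and 2.14 with KPC1. Group means fell from 1.95 for clone H and 1.93 for clone V through 1.67 for clone T and 1.57 for clone N to 1.40 for both clone E and clone M. With clone K it was 1.10 ± 0.116 (SD, n = 4) beside 1.0 ± 0.105 in the mono-culture, and these ranges overlapped. In 29 of 32 co-culture libraries the ratio was above its value in every mono-culture library. By an exact two-sided permutation test on log2 ratios, clones H, M, N, T and V and KPC1 each gave a p of 0.0286, the smallest that 4 against 4 libraries can give (0.0381 when adjusted over the 8 lines). The exact permutation p was 0.0571 for clone E and 0.286 for clone K (0.0653 and 0.286 adjusted).

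**Figure D3:**
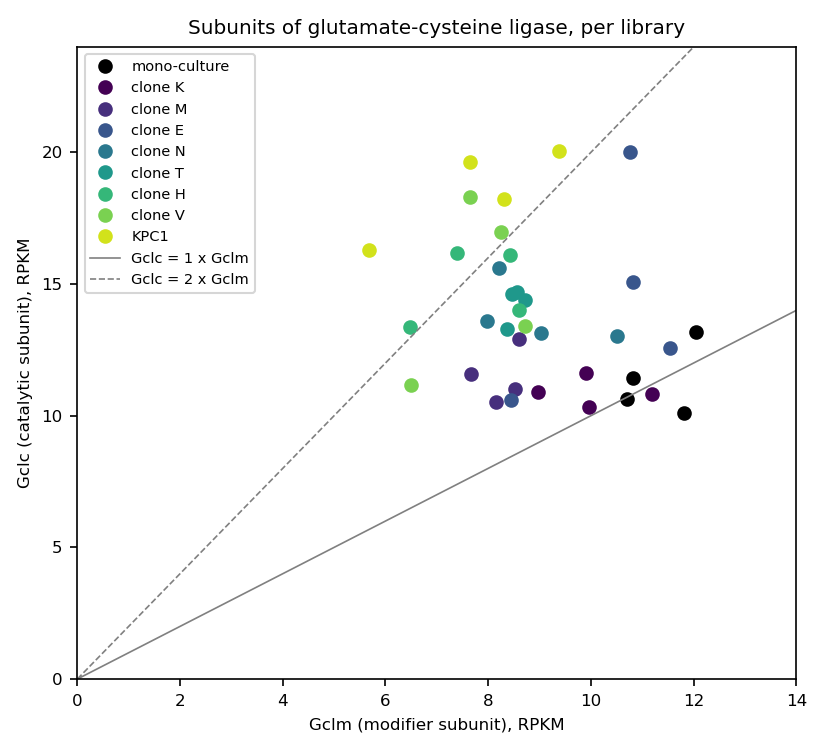
Gclc against Gclm in RPKM (reads scaled to gene length and library size), 1 point per library, coloured by culture; the solid line marks equal values and the dashed line a ratio of 2. The 4 mono-culture libraries lie along the solid line, clone K stays near it, and all 4 KPC1 libraries lie above the dashed line.

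Around this step, the cystine importer Slc7a11, which supplies cysteine for glutathione, was at 30.8, 46.4, 33.7 and 42.5 CPM in the mono-culture and at 217, 147, 131 and 84.0 CPM with KPC1. It rose by 1.08 on average on the log2 scale (SE 0.33, edgeR adjusted p 0.0068) and was higher with 6 lines. With 7 of the 8 lines, clone E being the exception, its lowest library was replicate 4. With clone M all 4 libraries lay below the mono-culture, at 15.6, 26.4, 17.8 and 12.1 CPM (log2 fold change -1.09, edgeR adjusted p 0.059, not called). Of the 22 genes of glutathione synthesis, use and export listed beside the members, 17 were tested, 7 were higher in the mean of the co-cultures and 4 lower, with a median of 0.19. Called genes made up 64.7% of those tested, beside 52.7% of all genes. Abcc4, an exporter of organic anions, rose by 1.10 (SE 0.22, edgeR adjusted p 0.00012). The glutathione transferases Gstm1 and Mgst1 fell by 1.22 (SE 0.12, edgeR adjusted p 7.5e-10) and by 0.97 (SE 0.20, edgeR adjusted p 0.00017) on the log2 scale. Gstm1 has near-identical relatives, so its reads are uncertain. Gss, the enzyme that completes glutathione and a gene singled out after its values were seen, was higher with all 8 lines.

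Gsr (ENSMUSG00000031584; chr8:33652523-33698163, plus strand), which returns oxidised glutathione to its reduced form, was at 66.1, 76.1, 72.7 and 65.5 CPM in the mono-culture. It was at 62.7, 45.9, 49.5 and 48.4 CPM with clone K and at 55.0, 54.2, 58.3 and 53.9 CPM with clone M, in both cases below every mono-culture library. These were the 2 lines that passed the test, at -0.44 (SE 0.10, edgeR adjusted p 0.0025) and -0.34 (SE 0.10, edgeR adjusted p 0.016), the latter lost without replicate 2 (0.069) or 3 (0.05) of the mono-culture. The mean of the co-cultures did not pass (edgeR adjusted p 0.65). Clone M was lower than clone N, its neighbour in the order of levels, by 0.29 on the log2 scale (edgeR adjusted p 0.045).

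Gsta4 (ENSMUSG00000032348; chr9:78182774-78209349, plus strand), a glutathione transferase that clears the lipid peroxidation product 4-hydroxynonenal, was the member with opposite calls. It was at 11.2, 13.6, 10.9 and 8.59 CPM in the mono-culture, at 29.99, 19.1, 17.9 and 23.9 CPM with clone T and at 5.29, 4.72, 5.67 and 7.60 CPM with clone V. Neither range overlapped that of the mono-culture. Clones T (1.04, SE 0.31, edgeR adjusted p 0.0068) and E (1.01, SE 0.31, 0.014) were higher and clone V lower (-0.93, SE 0.33, edgeR adjusted p 0.016). The call with clone E was lost without mono-culture replicate 4 (0.05) and that with clone V without mono-culture replicate 2 (0.053). Clones T and V differed by 1.97 (SE 0.33, edgeR adjusted p 9.9e-05). KPC1 did not pass (0.55, edgeR adjusted p 0.13) but did without its replicate 2 (0.81, 0.022), which held 6.99 CPM beside 17.3 to 22.2 in the others. That library also had the lowest epithelial marker sum of its line, 195 CPM. The median epithelial sum was lowest with clone V (85.8 CPM) and was 341 CPM with clone E and 488 CPM with clone T. It was highest with clone N (534 CPM), where Gsta4 was not called. With clone K the libraries had the same order by Gsta4 and by epithelial sum, while with clone H they did not. The part of tumour cell RNA in Gsta4 was not tested.

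Txnrd1 (ENSMUSG00000020250; chr10:82833951-82897712, plus strand), the selenoenzyme that reduces cytosolic thioredoxin, was at 185, 197, 191 and 210.4 CPM in the mono-culture. With KPC1 it was at 344, 299, 314 and 339.6 CPM, and with clone M at 156, 169, 157 and 174 CPM, so these groups lay on opposite sides of the mono-culture without overlap. The mean log2 fold change was 0.28 (SE 0.07, edgeR adjusted p 0.002). Clones T, H and V and KPC1 were higher, from 0.35 to 0.73 (edgeR adjusted p 2e-07 with KPC1). Clone M was at the threshold, at -0.26 with an edgeR adjusted p of 0.053 that passed in 15 of the 36 fits that left out a library (0.027 to 0.05) and, at 0.039, in DESeq2. Txnrd1 differed in 18 of 28 pairs of co-cultures, the most of any member, and its level followed Gclc over the 36 libraries (Pearson r 0.80).

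Srxn1 (ENSMUSG00000032802; chr2:152105516-152111376, plus strand), which repairs over-oxidised peroxiredoxins, passed with none of the 8 lines in the edgeR fit of all 36 libraries. It was at 38.9, 39.4, 42.4 and 39.8 CPM in the mono-culture, and its mean log2 fold change was 0.10 (SE 0.11, edgeR adjusted p 0.47). With clone V its libraries ranged widely, at 25.7, 27.2, 41.0 and 50.7 CPM. With KPC1 they were at 49.0, 34.97, 52.2 and 61.5 CPM, or 0.30 above the mono-culture on the log2 scale (SE 0.15, edgeR adjusted p 0.082). In 3 fits that left out a library, Srxn1 passed the threshold: KPC1 passed without its replicate 2 (0.44, 0.011) and without clone V replicate 4 (0.30, 0.047), and clone V was lower without that same library (-0.36, 0.033).

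**Figure D4:**
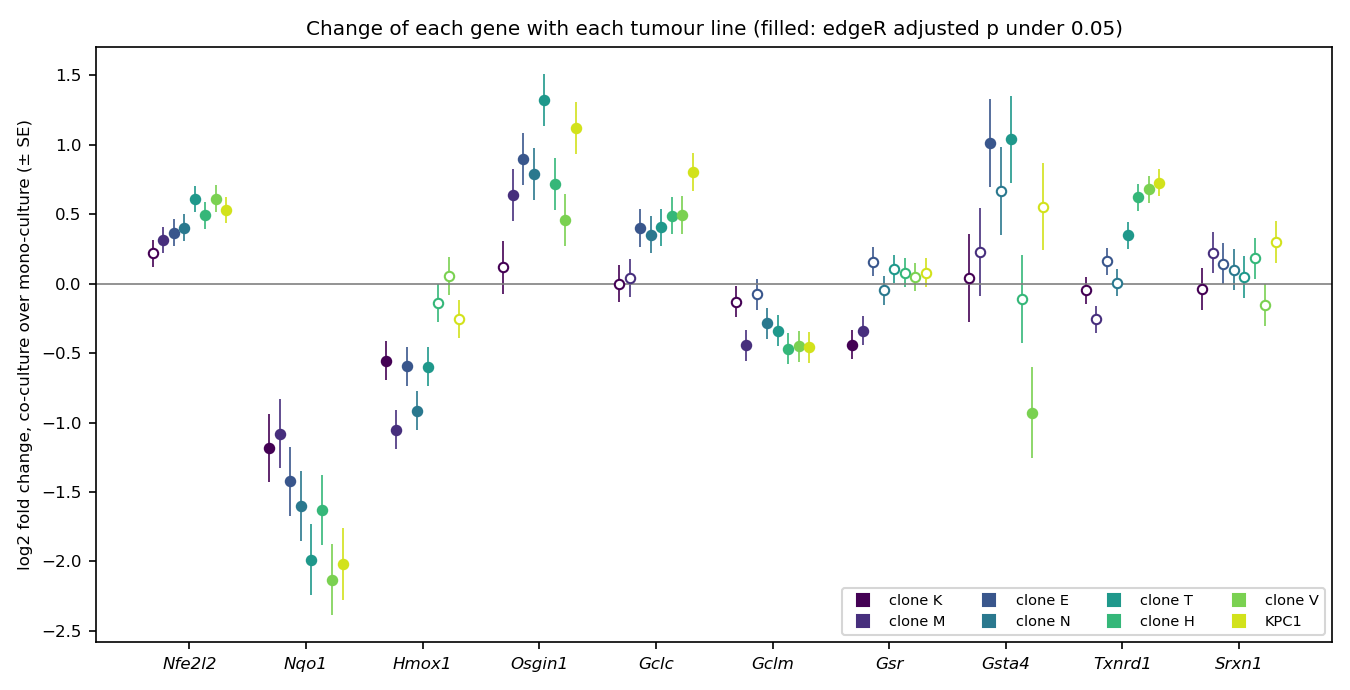
Log2 fold change of each member with each tumour line over mono-culture, with its standard error as the bar; colours stand for lines and filled points for an edgeR adjusted p under 0.05. Nqo1 is lower with all 8 lines, Nfe2l2 and Osgin1 are higher with 7, Srxn1 has no filled point, and Gsta4 spans -0.93 with clone V to 1.04 with clone T.

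Over the 36 libraries, the 45 pairs of members had Pearson correlations of log2 CPM from -0.79 to 0.80 with a median of 0.16, and 10 pairs were over 0.5 while 5 were under -0.5. The lowest was between Nfe2l2 and Nqo1, the gene of the factor and its much-used target, and it was -0.64 over the 32 co-culture libraries alone. Replicate 4 was the highest of its group for Nqo1 with clones E, K, N, T and V and with KPC1. For Nfe2l2, replicate 4 was the lowest with clones E, H, T and V and with KPC1. Differences between groups and between replicates both enter these correlations, and their parts were not tested. Of 80 pairs of neighbouring levels, 8 for each member, only 2 passed the test, those of Nqo1 and Gsr given above. Most orders of tumour lines by level are therefore not resolved step by step. The order came from the same values, which makes small steps likely for any gene, and no share over all genes stands beside this count. It describes these members only.

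Among other antioxidant genes, the thioredoxin and peroxiredoxin list of 13 had 5 higher and 4 lower in the mean of the co-cultures, with a median log2 fold change of 0.20. The share called was 69.2%, beside 52.7% of all genes. Prdx6, a peroxiredoxin that reduces phospholipid peroxides, rose by 0.82 (SE 0.12, edgeR adjusted p 7.8e-07), and Prdx5 by 0.54 (SE 0.08, edgeR adjusted p 2.4e-06). Txnrd2, the mitochondrial counterpart of Txnrd1, fell by 0.57 on the log2 scale (SE 0.13, edgeR adjusted p 0.00031), and Sesn1, a stress-induced gene of the sestrin family, fell by 0.54 (SE 0.11, edgeR adjusted p 9.5e-05). Sesn1 lay above every mono-culture library in 6 of the 32 co-culture libraries.

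Of 7 genes of NADPH production, which fuels Gsr, Txnrd1 and Nqo1, none was higher in the mean of the co-cultures and 2 were lower, with a median of -0.09. The share called was 28.6%, below the 52.7% of all genes. Pgd, of the pentose phosphate pathway, was at 157 to 175 CPM in the mono-culture and fell by 0.73 on the log2 scale (SE 0.10, edgeR adjusted p 2.2e-07), with calls in all 8 lines. Idh1, a cytosolic NADPH source, fell by 0.54 (SE 0.14, edgeR adjusted p 0.0018).

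Of 15 genes that handle carbonyls, quinones, haem and iron, 2 were higher and 6 lower, with a median of -0.14. The share called was 53.3%, near the 52.7% of all genes. Cbr3 and Akr1b8, which reduce carbonyls, rose by 0.55 (SE 0.18, edgeR adjusted p 0.01) and 0.36 (SE 0.06, edgeR adjusted p 9.1e-06). The ferritin genes Fth1 and Ftl1, which encode the iron store, fell by 0.84 (SE 0.08, edgeR adjusted p 2.7e-10) and 0.79 (SE 0.13, edgeR adjusted p 9.8e-06) on the log2 scale, with calls in all 8 lines. Both ferritins have many near-identical copies in the genome, so their reads are uncertain.

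Of the 4 superoxide dismutases and catalase, 1 was higher and 3 lower, with a median of -0.39. All 4 were thus called, beside 52.7% of all genes. Sod3, the secreted superoxide dismutase, was at 14.2 to 16.8 CPM in the mono-culture and at 49.2 to 128 CPM with clone N. It rose by 1.49 on average (SE 0.24, edgeR adjusted p 8.1e-06), with calls in all 8 lines. Sod1, the cytosolic enzyme, fell by 0.56 (SE 0.08, edgeR adjusted p 1.4e-06), and catalase (Cat) by 0.48 (SE 0.09, edgeR adjusted p 4.3e-05).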

How the data were processed

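Unscaled counts of reads per gene were deposited for 36 libraries and 39017 genes. The authors also deposited RPKM values, scaled to gene length and library size, which cover 37746 genes. Libraries were strand specific and poly(A)-selected (200 ng RNA, 14 amplification cycles, paired reads of 76 bases). The submitters' processing notes name STAR, featureCounts, edgeR and mm10, without versions; whether counting used strand is not given in the sources used here. Counts were filtered with filterByExpr, scaled by TMM (factors 0.957 to 1.07) and fitted with edgeR 4.0.16 (R 4.3.3) in a robust quasi-likelihood model with 1 coefficient for each of 9 groups, and p-values were adjusted over 14439 genes. CPM values are TMM-scaled; log2 CPM used a prior count of 1. No libraries were duplicates: the closest pair differed by a chi-square of 5.53 per degree of freedom. Gene coordinates are from GENCODE for GRCm38. In that annotation 7 genes overlap members (Nfe2l2, Gclm, Txnrd1 and Gsr), and the 4 of them in the count table had at most 13 counts.

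The members and gene lists were chosen with earlier results of these data known. Genes named beside the members were the 2 highest and 2 lowest called genes of each list (mean of at least 2 CPM), with Keap1, Bach1 and Slc7a11 always, and the 3 genes most correlated with Nqo1 and with Hmox1. Alternatives were DESeq2 1.42.0, RLE scaling, library size alone, no filter, a minimum of 10 counts in each library, a replicate block, limma 3.58.1 on log2(RPKM + 1) and log2(RPKM + 0.1), a threshold of 0.1, the 8 libraries of each comparison alone, and leaving out each library.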

Additional observations from a re-analysis of the deposited data

Results flagged for a closer look

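In 5 of 90 sets of 4 libraries (10 members in 9 groups) a library lay far from the other 3, its gap to the nearest divided by the group's range exceeding Dixon's critical value at 95%. Chance flags about 1 in 20 sets. They were Nfe2l2 in the mono-culture (0.909, replicate 2 at 138 CPM), Hmox1 with clone E (0.892, replicate 4 at 92.0 CPM), Srxn1 with clone N (0.914, replicate 3 at 47.6 CPM), Gsta4 with clone N (0.839, replicate 2 at 21.9 CPM) and Osgin1 with clone N (0.947, replicate 1 lowest at 18.3 CPM).

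Gsta4 was called in opposite directions with clones T and V, and the difference between them was tested directly. It was 1.97 on the log2 scale (SE 0.33, edgeR adjusted p 9.9e-05), and was chosen as the member whose calls differed in sign.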

How the results depend on the processing

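The number of members called in the mean of the co-cultures stayed at 7 under every alternative run, and that among the co-cultures at 9, or 9 to 10 when a library was left out. Leaving out a library gave 5 to 6 members with clone E, 6 with H, 3 with K, 5 to 7 with M, 4 to 6 with N, 8 with T, 5 to 8 with V and 6 to 8 with KPC1. The 2 neighbouring pairs called became 1 with library size alone, with no filter, with at least 10 counts in every library and in both limma fits, 4 at a threshold of 0.1, and 1 to 4 when a library was left out. With no filter, clone N had 4 members called.

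Directions were followed for 77 single values. Values by line that were not called and under 0.1 in size (log2) were left out. Of those followed, only the directions of Gsr in the mean and of Gsta4 with clone H turned. Gsr ranged from -0.081 to 0.00081 when a library was left out, the highest without mono-culture replicate 2. Gsta4 with clone H ranged from -0.23 to 0.070, above 0 without clone H replicate 1 or mono-culture replicate 2. None of these values passed the test. Calls near the threshold moved with the setting. Gclc with clone N was lost with library size alone (edgeR adjusted p 0.1), no filter (0.055) and limma (0.099 and 0.096). Gclc with clone E was lost in limma (0.072 and 0.071) and in its 8 libraries alone (0.058), and Osgin1 with clone V in those and with library size alone (0.15, 0.14, 0.08 and 0.087). Gclm with clone N was lost with no filter (0.06), Hmox1 with KPC1 was gained in both limma fits (0.027), and Txnrd1 with clone M was gained with library size alone (0.028), at least 10 counts (0.044) and limma (0.026). Fits of 8 libraries added Nfe2l2 with clone K (edgeR adjusted p 0.026), Srxn1 and Txnrd1 with clone M (0.017 each) and Gsta4 with clone N (0.0044). The causes were not tested.

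The labels do not say that replicate numbers mark a shared day, although running numbers in the titles place the 8 co-cultures of one replicate number together. The mono-cultures carry the numbers 33 to 36, which follow those of all co-cultures. An effect that follows this numbering cannot be told apart from one of co-culture. Deviations of same-numbered libraries from their group means correlated at a mean of 0.11 over 144 pairs, of which 68 were over 0.1 (lowest -0.58), against -0.035 for different numbers. Within the co-cultures these means were 0.14 and -0.047. Deviations from a group mean cancel within the group, so the mean for different numbers largely follows from that for the same numbers. It is not a separate comparison. Mono-culture replicates 1, 2, 3 and 4 correlated with same-numbered co-cultures at means of -0.087, 0.029, 0.018 and -0.043. With other numbers the mono-culture means were -0.0074 to 0.017. Whether the block describes the mono-cultures was not tested. In all, 24 of 36 libraries, and 23 of 32 among the co-cultures, were closest to their own number, which hints at a shared source, but not in every pair, so the block was kept as an alternative. The replicate block changed the count with clone M from 6 to 7, adding Txnrd1 (-0.26, edgeR adjusted p 0.048), and no other call. Depth limits little here, since every member had at least 82 counts in each library; the spread between libraries sets the precision.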
